A study of Mus musculus with 6 samples.

Results

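The genes described here are 10 genes of MHC class I antigen presentation, chosen by name from the gene table, and all 10 were found among its 56980 mouse genes. They are B2m, H2-K1, H2-D1, H2-Q4, H2-Q6, H2-Q7, Tap1, Tap2, Tapbp and Nlrc5. RNA sequencing was done on whole lung of immunodeficient NSG mice, 5 weeks after human MDA-MB-231 cells, a triple-negative breast cancer line, were injected orthotopically into the mammary fat. In the Ctrl group (n = 3) the injected cells were MDA-MB-231, and in the DPP3_KO group (n = 3) they were MDA-MB-231 cells lacking DPP3, the gene of dipeptidyl peptidase 3. All hosts were NSG mice carrying such a tumour. The sources used here do not give the age or sex of the mice, whether the knockout line is 1 clone, or whether Ctrl cells carry a control vector. The deletion lies in the human tumour cells, so no mouse gene checks it.

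MHC class I molecules carry short peptides from inside the cell to its surface, where CD8 T cells read them and natural killer cells sense their loss. A heavy chain (H2-K1 and H2-D1, the classical mouse genes, and the H2-Q genes of the nonclassical Qa region) pairs with the invariant light chain beta-2 microglobulin, encoded by B2m. Proteasomes cut the peptides, the TAP1-TAP2 transporter moves them into the endoplasmic reticulum, and tapasin (Tapbp) holds empty heavy chains at the transporter while they load. NLRC5 is the transactivator that works at the S, X and Y boxes of class I promoters, and interferons raise the whole set in most cells, endothelium and macrophages among them. NSG hosts have no mature lymphocytes, natural killer cells included, and so lack the usual readers of class I.

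Promoter sequence was available for 8 of the 10 genes in RefSeq (GRCm38.p6, an earlier build than the GRCm39 of the expression table), and 4 of these promoters are printed because their genes carry the comparisons below: the light chain, both classical heavy chains, and H2-Q6, which had the lowest log2 change of the members. Each line gives the 250 bases before the transcription start, 5′ to 3′ on the gene's strand, with matches to any of 4 motifs in capitals. The motifs, searched on both strands, were the core of the interferon-responsive element, a kappa B site, CCAAT (the NF-Y site of the Y box) and TGACG (the core of the X2 box), and matches of different motifs overlapped 0 times.
B2m (chr2:122147437-122147686, plus strand): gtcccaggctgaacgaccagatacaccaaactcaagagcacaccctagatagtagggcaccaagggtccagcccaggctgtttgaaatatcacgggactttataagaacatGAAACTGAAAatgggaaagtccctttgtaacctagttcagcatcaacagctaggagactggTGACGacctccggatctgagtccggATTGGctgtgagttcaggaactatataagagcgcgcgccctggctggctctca
H2-K1 (chr17:34000348-34000597, minus strand): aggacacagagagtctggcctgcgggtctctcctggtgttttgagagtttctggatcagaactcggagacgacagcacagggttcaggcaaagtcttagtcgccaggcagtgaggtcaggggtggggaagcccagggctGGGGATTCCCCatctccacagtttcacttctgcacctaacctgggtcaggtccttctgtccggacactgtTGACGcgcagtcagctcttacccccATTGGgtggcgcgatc
H2-D1 (chr17:35262844-35263093, plus strand): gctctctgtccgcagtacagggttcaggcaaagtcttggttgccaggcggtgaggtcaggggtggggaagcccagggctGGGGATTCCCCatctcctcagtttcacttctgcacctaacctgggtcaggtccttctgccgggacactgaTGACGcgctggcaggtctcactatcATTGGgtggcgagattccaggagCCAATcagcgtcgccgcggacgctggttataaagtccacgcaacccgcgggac
H2-Q6 (chr17:35424600-35424849, plus strand): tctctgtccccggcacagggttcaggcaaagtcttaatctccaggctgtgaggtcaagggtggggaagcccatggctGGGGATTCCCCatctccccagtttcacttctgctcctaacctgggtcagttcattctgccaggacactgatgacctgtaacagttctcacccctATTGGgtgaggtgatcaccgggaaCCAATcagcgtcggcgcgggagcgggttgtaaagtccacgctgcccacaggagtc

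CCAAT was found in 8 of 8 member promoters, against 33.8% of the 32851 promoters in the table, and TGACG in 6 of 8, against 17.8%. The 5 heavy chain promoters among them are 52.1% to 82.2% identical in pairs, so the 8 are not independent. In B2m, H2-K1 and H2-D1 the TGACG match lay upstream of an inverted CCAAT, beginning at -78 and -53, at -41 and -16, and at -101 and -76 from the start. H2-Q7 had the same order, at -64 and -40. The H2-K1 positions are counted from start site 1, whose promoter is printed. From start site 2 these H2-K1 matches began at -55 and -30, with a further CCAAT, not inverted, at -6. In H2-Q4 the TGACG match began at -73, downstream of the inverted CCAAT at -79. In Tap1 TGACG began at -86 and CCAAT, not inverted, at -222. H2-Q6 and Tapbp had no TGACG match. The kappa B motif was searched only in a strict palindromic form. That form was found in H2-K1, H2-D1 and H2-Q6, and 0.0457% of all promoters hold it. A form this strict is rare by its choice, so the low share is no measure of enrichment of kappa B sites. Whether B2m, H2-Q4, H2-Q7, Tap1 and Tapbp hold another form of the site was not tested. The interferon-responsive core was found only in B2m among the 8, at -139, and 2.98% of all promoters hold it. The longest run shared by all 5 heavy chain promoters was 21 bases, acagggttcaggcaaagtctt. These matches describe letters in the reference strain. Looser or shorter forms of the motifs were not searched, so no match does not mean that a promoter lacks such a site. It also says nothing about binding elsewhere.

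Expression is given as TPM, the share of a library's transcripts on a fixed total, which is scaled by gene length, so levels can be compared between genes within a library. The depth is unknown. B2m was the most abundant member, at rank 47 of all genes by mean TPM, and H2-D1 and H2-K1 followed at ranks 79 and 109. H2-D1 and H2-K1 touched in Ctrl, where the lowest H2-D1 and the highest H2-K1 library both stood at 1418 TPM, and overlapped in DPP3_KO. In Ctrl the order went on with H2-Q6, H2-Q4, Tapbp, H2-Q7, Tap2 and Tap1, and the ranges over libraries overlapped between H2-Q6 and H2-Q4, H2-Q4 and Tapbp, Tapbp and H2-Q7, and H2-Q7 and Tap2. Nlrc5 was lowest in both groups at 13.1 ± 3.96 TPM (SD, n = 3) in Ctrl and 5.21 ± 1.88 in DPP3_KO.

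**Figure D1:**
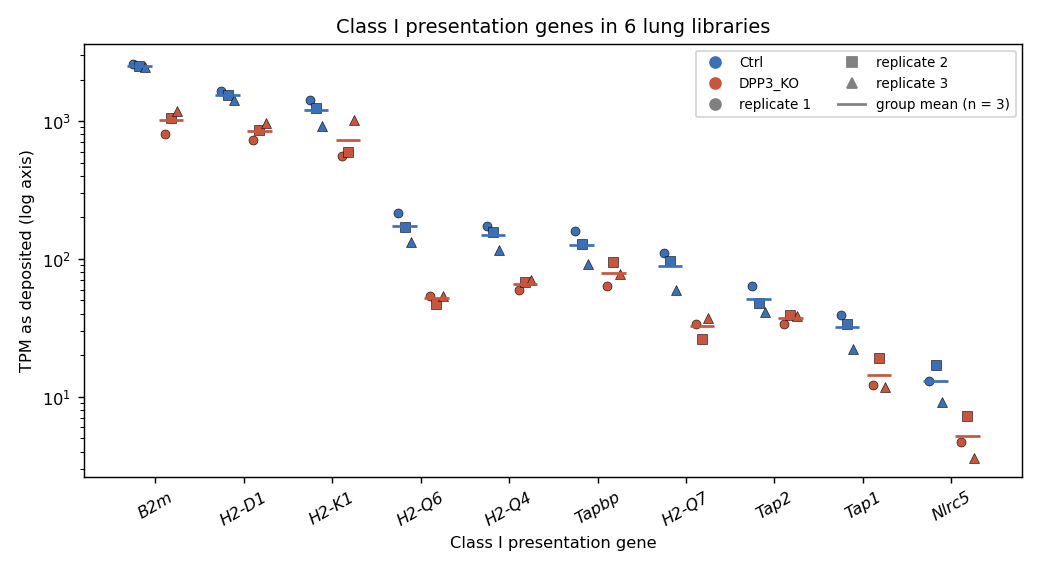
TPM as deposited (log axis) of the 10 class I presentation genes in each library, Ctrl in blue and DPP3_KO in red, with symbols for the replicate and a line at each group mean. The DPP3_KO points lie below all Ctrl points for 8 genes, against 51.1% of all tested genes, and the groups overlap for H2-K1 and Tapbp.

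As deposited, every member had a lower mean in DPP3_KO than in Ctrl lungs, and 7 of the 10 passed the test. The test was limma on log2(TPM + 1) over 15650 genes with Benjamini-Hochberg adjustment and a threshold of 0.05, and 34.0% of all tested genes were called lower and 1.38% higher in the same fit, while 0 members were higher. At an unadjusted p under 0.05, 9 members were lower, against 48.0% of all tested genes. The groups did not overlap for 8 of the 10 members, against 51.1% of all tested genes. The median log2 change of the members was -1.12, and that of all tested genes was -0.60. Scgb1a1, the club cell secretoglobin gene, alone took 8.33% ± 1.58 of the summed TPM of Ctrl libraries and 26.1% ± 3.84 of that of DPP3_KO libraries, which leaves less of the fixed total for all other genes. Each member was therefore also compared after median-of-ratios scaling, which sets it against the typical gene and brings the median of all tested genes to -0.026. Scaled values below mean these. After that scaling 0 of the 10 members passed (limma), where 0.882% of all tested genes were called lower and 1.90% higher, and 5 members had an unadjusted p under 0.05, all lower, where 11.6% of all tested genes did, and the members' median log2 change was -0.48. That count of 5 rests on single libraries, since it was 1 without Ctrl replicate 1, Ctrl replicate 2 or DPP3_KO replicate 1, 2 without DPP3_KO replicate 2, and 4 or 5 without either of the others. All tested genes gave 1451 of 15526 without Ctrl replicate 1, 984 of 15503 without Ctrl replicate 2 and 1915 of 15759 without DPP3_KO replicate 1. They gave 1505 of 15675 without DPP3_KO replicate 2, 1572 of 15502 without Ctrl replicate 3 and 1293 of 15810 without DPP3_KO replicate 3. Without Ctrl replicate 2, 0 of the 10 passed as deposited (7 with an unadjusted p under 0.05), and without Ctrl replicate 1, 3 passed. The calls over all tested genes fell too. Without Ctrl replicate 2, 85 of 15503 were called lower (5113 at an unadjusted p under 0.05), and without Ctrl replicate 1, 1037 of 15526. The title of Ctrl replicate 3 carries 232 in place of 231 and was read as the same line. Without that library 8 members passed, beside 4457 of 15502 tested genes called lower.

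B2m, the light chain of all class I molecules, was lower in each DPP3_KO library. It stood at 2611, 2499 and 2466 TPM in Ctrl and at 813, 1055 and 1193 TPM in DPP3_KO. The groups did not overlap, and the Ctrl libraries lay close together. The mean fell from 2525 ± 76.0 to 1020 ± 192 TPM, a log2 change of -1.32 ± 0.20 (SE; limma adjusted p = 0.0145). After scaling the log2 change was -0.66 (95% interval -1.29 to -0.044, adjusted p = 0.193), and the scaled values still did not overlap, at 1843 to 2079 in Ctrl and 1006 to 1705 in DPP3_KO. After that scaling 2 of the 10 members, B2m and H2-Q6, had groups that did not overlap, against 15.4% of all tested genes with DPP3_KO below Ctrl. With the trend of change with gene length also removed, B2m, the shortest member, stood at -0.998 (adjusted p = 0.0505). Under quantile normalization B2m stood at -1.39 (adjusted p = 0.0114), and without Ctrl replicate 2 the call as deposited was lost (-1.33, adjusted p = 0.0720).

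Of the classical heavy chain genes, H2-D1 passed the test as deposited and H2-K1 did not. H2-D1 stood at 1655, 1554 and 1418 TPM in Ctrl and at 735, 860 and 962 TPM in DPP3_KO, with no overlap, and fell by 0.86 on the log2 scale (SE 0.18, limma adjusted p = 0.0189). The H2-D1 call was lost without Ctrl replicate 1 (limma adjusted p = 0.0655) and without Ctrl replicate 2 (0.0895). H2-K1 stood at 1418, 1254 and 917 TPM in Ctrl and at 560, 599 and 1015 TPM in DPP3_KO. DPP3_KO replicate 3 thus lay above Ctrl replicate 3, and the H2-K1 log2 change of -0.75 did not pass (adjusted p = 0.0751; adjusted p = 0.0473 and -1.02 without DPP3_KO replicate 3). After scaling the changes were -0.20 for H2-D1 (95% interval -0.76 to 0.36) and -0.09 for H2-K1 (-0.93 to 0.75), and -0.35 and -0.27 with the length trend removed as well. NSG mice are on the NOD background, which carries the d allele of H2-K where the reference strain carries b, and how this touches the level of H2-K1 was not tested.

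All 3 H2-Q genes, nonclassical heavy chains with lower levels, fell as deposited, and H2-Q6 and H2-Q7 had the lowest log2 changes of the 10 members. H2-Q6 stood at 216, 172 and 134 TPM in Ctrl and at 54.1, 47.2 and 54.2 TPM in DPP3_KO. Every DPP3_KO library lay far below every Ctrl library, and the mean was 3.35-fold lower, a log2 change of -1.70 ± 0.21 (SE; limma adjusted p = 0.0145). H2-Q7 stood at 111, 95.9 and 59.6 TPM in Ctrl and at 33.9, 26.2 and 37.1 TPM in DPP3_KO, a log2 change of -1.39 (adjusted p = 0.0171). H2-Q4 stood at 174, 156 and 117 TPM in Ctrl and at 59.5, 67.5 and 69.9 TPM in DPP3_KO, a log2 change of -1.15 (adjusted p = 0.0155). The groups did not overlap for any of these 3 genes as deposited, where the same held for 51.1% of all tested genes. After scaling they overlapped for H2-Q4 and H2-Q7 and not for H2-Q6. After scaling H2-Q6 stood at -1.05 (95% interval -1.60 to -0.50, adjusted p = 0.0675), H2-Q7 at -0.75 (adjusted p = 0.194) and H2-Q4 at -0.50 (adjusted p = 0.211). H2-Q6 lay above H2-Q4 in each Ctrl library and below it in each DPP3_KO library.

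These heavy chain genes are close copies, so their single values are uncertain. In the longest coding transcript of each gene in GENCODE M21, 34.9% of the 50-base windows of H2-Q7 and 651 of the 2036 of H2-Q6 occur unchanged in a transcript of another gene, against 24.3% for H2-Q4, 14.3% for H2-D1 and 8.79% for H2-K1. H2-Q7 and H2-Q6 share most with each other. With windows of 150 bases the shares were 9.68% for H2-Q7, 5.99% for H2-Q6, 1.79% for H2-D1 and 0 for H2-Q4 and H2-K1. The sources used here give neither the read length nor the treatment of reads with several matches, so sums are given as well.

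Summed over all 5 heavy chain genes, Ctrl libraries held 3574, 3232 and 2645 TPM and DPP3_KO libraries 1443, 1599 and 2138 TPM. The sums did not overlap, and their means were 3150 ± 469 and 1727 ± 365 TPM (mean difference of log2 sums -0.88). An exact two-sided permutation test gave p = 0.1, the smallest that 3 against 3 libraries can give. The sum of H2-Q4, H2-Q6 and H2-Q7 went from 412 ± 95.9 to 150 ± 10.4 TPM (-1.43, exact permutation p = 0.1), and that of H2-K1 and H2-D1 from 2739 ± 373 to 1577 ± 356 TPM (-0.81, exact permutation p = 0.1). After scaling the H2-Q sum still did not overlap between groups (-0.77, exact permutation p = 0.1), whereas the classical sum did (-0.15, exact permutation p = 0.6), as did the sum of all 5 (-0.22, exact permutation p = 0.6). In DPP3_KO replicate 3 the scaled sum of all 5 was 3056, above each Ctrl library (2224 to 2845).

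Ratios between members within a library do not depend on the scaling, and a few were formed after the values had been seen. The 5 heavy chains stood at 1.37, 1.29 and 1.07 times B2m in Ctrl and at 1.77, 1.52 and 1.79 times B2m in DPP3_KO, so heavy chain RNA was higher relative to light chain RNA in each DPP3_KO library (means 1.24 ± 0.154 and 1.69 ± 0.155, exact permutation p = 0.1). The H2-Q genes made up 14.01%, 13.1% and 11.7% of the heavy chain sum in Ctrl and 10.2%, 8.81% and 7.54% in DPP3_KO, again without overlap (exact permutation p = 0.1). H2-K1 took 43.4% ± 3.61 of the H2-K1 and H2-D1 sum in Ctrl and 45.2% ± 5.42 in DPP3_KO, and these ranges overlapped (exact permutation p = 0.7).

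**Figure D2:**
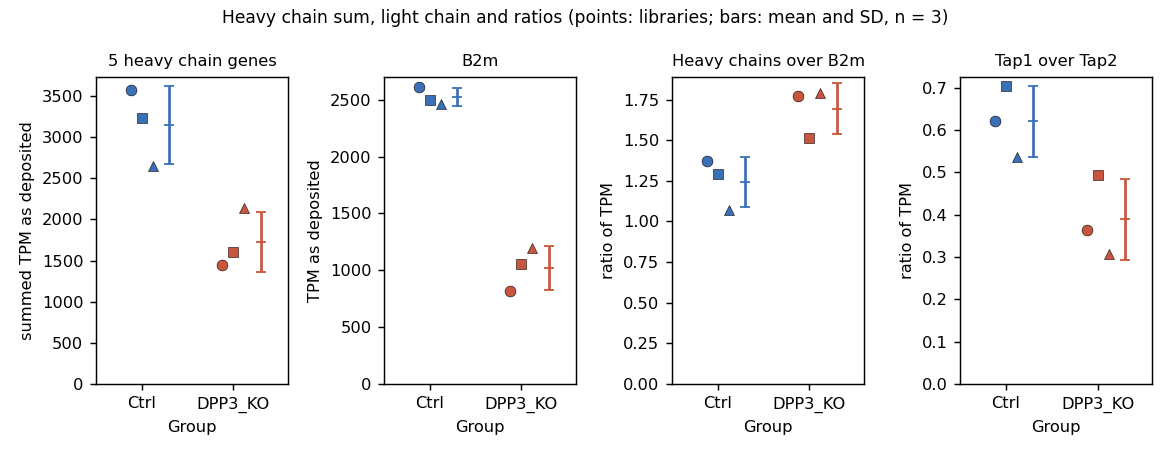
Summed TPM of the 5 heavy chain genes, TPM of B2m, the ratio of that sum to B2m and the ratio of Tap1 to Tap2, in Ctrl (blue) and DPP3_KO (red), with points for libraries and bars for mean and SD (n = 3). The groups do not overlap in any panel, with sums of 2645 to 3574 TPM in Ctrl and 1443 to 2138 TPM in DPP3_KO.

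Of the peptide transporter subunit genes, Tap1 passed the test as deposited and Tap2 did not. Tap1 stood at 39.5, 33.9 and 22.3 TPM in Ctrl and at 12.3, 19.3 and 11.9 TPM in DPP3_KO, without overlap, and fell by 1.08 on the log2 scale (SE 0.28, limma adjusted p = 0.0273). Tap2, which encodes its partner subunit, stood at 63.5, 48.2 and 41.5 TPM in Ctrl and at 33.6, 38.9 and 38.6 TPM in DPP3_KO. Those groups did not overlap either, but the Tap2 log2 change of -0.43 did not pass (adjusted p = 0.124) and became 0.21 after scaling (95% interval -0.29 to 0.71) and 0.19 after quantile normalization. The ratio of Tap1 to Tap2 was 0.621 ± 0.0843 in Ctrl and 0.389 ± 0.0957 in DPP3_KO, with no overlap (exact permutation p = 0.1). Tap1 stood at -0.46 after scaling (adjusted p = 0.285).

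Tapbp, the gene of the loading chaperone tapasin, overlapped between the groups. It stood at 160, 129 and 91.6 TPM in Ctrl and at 63.2, 94.6 and 78.2 TPM in DPP3_KO, a log2 change of -0.66 (limma adjusted p = 0.0764) that was -0.011 after scaling. The transactivator gene Nlrc5 stood at 12.9, 17.1 and 9.17 TPM in Ctrl and at 4.71, 7.29 and 3.63 TPM in DPP3_KO. All DPP3_KO libraries lay below Ctrl, and Nlrc5 fell by 1.18 on the log2 scale (SE 0.30, adjusted p = 0.0268). After scaling it stood at -0.60 (95% interval -1.15 to -0.05, adjusted p = 0.186). With the trend of change with gene length also removed, Nlrc5, the longest member, stood at -0.31 with an interval that spans 0 (-0.86 to 0.23, adjusted p = 0.488). The calls for Tap1 and Nlrc5 were lost when Ctrl replicate 1 or 2 or DPP3_KO replicate 1 or 3 was left out, with adjusted p between 0.0620 and 0.104.

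**Figure D3:**
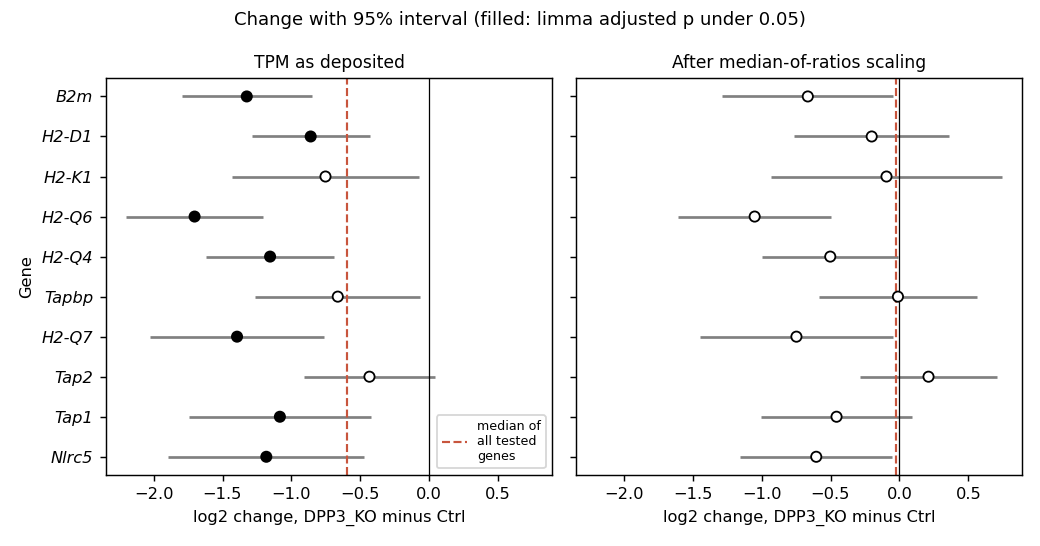
Log2 change (DPP3_KO minus Ctrl) of each member with its 95% interval from limma, on TPM as deposited and after scaling, with filled points for adjusted p under 0.05 and a dashed line at the median of all tested genes. As deposited 7 points are filled, and after scaling 0 are filled and the changes run from -1.05 for H2-Q6 to 0.21 for Tap2.

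The members did not follow a single profile across libraries once scaled. Relative to each gene's own mean on the scaled log2 scale, the mean of the 10 members was 0.46, 0.19 and -0.035 in Ctrl replicates 1, 2 and 3 and -0.37, -0.31 and 0.061 in DPP3_KO replicates 1, 2 and 3. Ctrl replicate 1 was thus highest and DPP3_KO replicate 1 lowest. H2-Q4 lay closest to the mean of the other members, with a root mean square difference of 0.053 on the log2 scale, and H2-Q6, Nlrc5 and Tap2 lay farthest at 0.38, 0.36 and 0.36. DPP3_KO replicate 3 was the most divided library, with H2-K1 at 0.69 and Nlrc5 at -0.53.

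**Figure D4:**
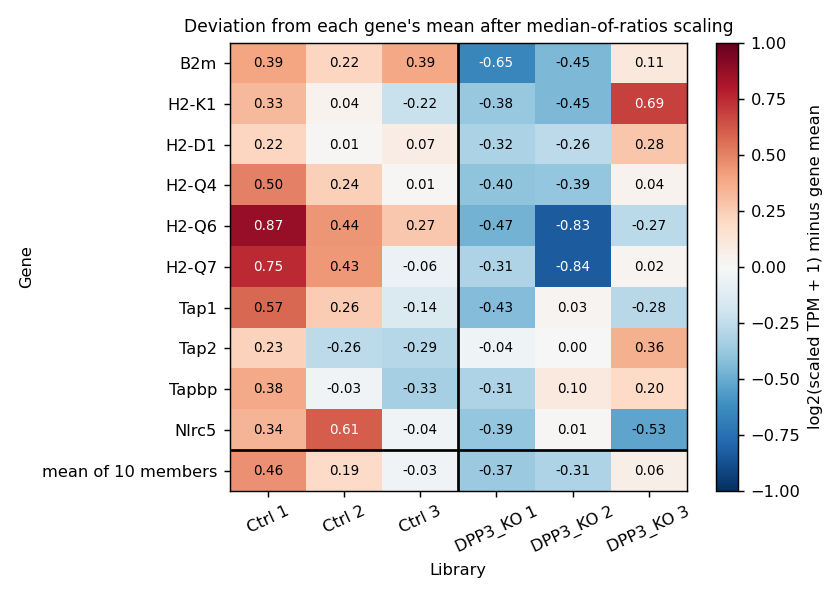
Deviation of each member from its own mean, in log2(scaled TPM + 1), in the 6 libraries after scaling, with the mean of the 10 members in the bottom row. H2-K1 reaches 0.69 in DPP3_KO replicate 3, while H2-Q6 is above 0 in each Ctrl library and below 0 in each DPP3_KO library.

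Among 8619 candidate genes (minimum mean of 10 TPM), the 5 whose scaled profile over the 6 libraries lay nearest to the members' mean profile were Gm12216, Slirp, H2-Q10, Robo4 and Zfp706. Their root mean square differences were 0.039, 0.079, 0.084, 0.087 and 0.092 on the log2 scale. H2-Q10 is another Qa-region heavy chain gene, Slirp encodes a mitochondrial RNA-binding protein and Robo4 an endothelial receptor. H2-Q10 stood at 19.96, 15.4 and 11.9 TPM in Ctrl and at 6.43, 6.62 and 7.14 TPM in DPP3_KO, and it can share reads with the other heavy chain genes.

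Marker genes of several lung cell types, though not all, also differed between the groups in the same libraries, in both directions. In whole lung, fewer cells of a type and less RNA per cell cannot be told apart. Of all tested genes, 34.0% were called lower and 1.38% higher as deposited, and 0.882% and 1.90% after scaling. Of 12 capillary endothelial markers 9 were lower as deposited, and 3 after scaling, and their summed level was 3708 to 4638 TPM in Ctrl and 1360 to 2406 TPM in DPP3_KO. Of 12 alveolar macrophage markers 9 were lower, and 7 after scaling, with sums of 2279 to 4093 and 308 to 2024 TPM, and of 8 alveolar type 1 markers 7 were lower, and 2 after scaling, with sums of 3582 to 5915 and 1110 to 2560 TPM. Club cell markers went the other way, with 5 of 7 higher and 3 after scaling, and sums of 75086 to 106876 and 230475 to 299443 TPM. After scaling the ranges overlapped for the endothelial (3118 to 3692 and 1497 to 3439), macrophage (1681 to 3441 and 381 to 2227) and type 1 sums (3012 to 4427 and 1222 to 3168), and not for the club cell sums. Scaled log2 changes were below 0 for 9 of 12 endothelial, 11 of 12 macrophage, 7 of 8 type 1 and 0 of 7 club cell markers. None of these lists had a marker at 0 in all libraries, and their part in the class I values was not tested. Alveolar type 2, ciliated and heart muscle markers had 4 of 8 lower, 5 of 8 higher and 5 of 7 higher, or 0, 6 and 5 after scaling. Sums of 8 neutrophil markers ranged widely within both groups, from 4625 to 54630 TPM in Ctrl and from 1803 to 36338 TPM in DPP3_KO, and 0 of the 8 passed in limma (0 with an unadjusted p under 0.05). T, B and natural killer cell markers summed to at most 3.00 TPM in any library.

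Some genes of the proteasomes that feed the pathway passed the test as deposited, and none did after scaling. Of 5 immunoproteasome and activator genes 2 were called lower as deposited. Psmb8 fell by 0.91 on the log2 scale (134 ± 20.6 and 70.2 ± 4.08 TPM, limma adjusted p = 0.0171) and Psmb9 by 0.84 (44.8 ± 7.87 and 24.7 ± 5.16 TPM, adjusted p = 0.0283), while Psmb10 (-0.54) and Psme2 (-0.53) did not pass. Psmb8 and Psmb9 encode interferon-inducible catalytic subunits. Of their 3 constitutive counterparts, Psmb7 fell by 0.54 (adjusted p = 0.0339), and Psmb5 and Psmb6 stood at -0.19 and -0.17. These 3 calls among 8 genes lie near the 34.0% of all tested genes called lower, and the list medians of -0.54 and -0.19 lie above the -0.60 of all tested genes. Summed, the inducible catalytic subunits stood at 0.673, 0.724 and 0.664 times the constitutive ones in Ctrl and at 0.409, 0.585 and 0.472 times in DPP3_KO, without overlap (exact permutation p = 0.1), a ratio also formed after the values were seen. After scaling the medians of the inducible and constitutive lists were 0.11 and 0.46, with 0 called in limma (0 and 1, the latter higher, at an unadjusted p under 0.05), and Psmb5, Psmb6, Psmb7, Psmb10, Psme1 and Psme2 turned positive.

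Genes of peptide loading and trimming were mostly lower as deposited. Of 10, 8 were called lower and 0 higher, against 34.0% of all tested genes called lower and 1.38% higher. The median log2 change was -0.94, beside -0.60 for all tested genes. Erap1, which trims peptides in the endoplasmic reticulum, went from 27.9 ± 2.83 to 8.93 ± 4.03 TPM (-1.61, limma adjusted p = 0.0159). Ganab, a glucosidase subunit of glycoprotein folding, fell by 1.23 on the log2 scale, the folding sensor gene Uggt1 by 0.99 and the chaperone gene Hspa5 by 0.94. After scaling 0 of the 10 passed in limma (3 lower at an unadjusted p under 0.05, against 11.6% of all tested genes). The scaled median was -0.28, with Erap1 at -1.001 (adjusted p = 0.112).

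Other class I and class I-like heavy chains, outside the members, were also measured. Of 20 genes on that list, 15 reached a mean of 1 TPM and were tested, 9 of these were called lower and 0 higher as deposited, with a median of -0.92 that was -0.29 after scaling, where 0 passed (5 lower and 1 higher at an unadjusted p under 0.05). Of all tested genes, 34.0% were called lower as deposited, and 11.6% were lower at an unadjusted p under 0.05 after scaling. H2-T24 fell from 21.3 ± 7.79 to 5.87 ± 2.15 TPM (-1.69, limma adjusted p = 0.0176), H2-Q2 by 1.41, H2-Q1 by 1.23 and H2-M3, which presents formylated peptides, by 1.19. Cd1d1, H2-Q10, H2-T23, H2-T22 and Hfe were also called. Azgp1, a class I-like secreted protein gene, lay the other way without passing, at 0.92, 0.60 and 1.66 TPM in Ctrl and 4.71, 3.33 and 1.79 TPM in DPP3_KO, with no overlap (log2 change 1.03, adjusted p = 0.0549, and 1.41 after scaling, adjusted p = 0.0715). H2-M2 stood at 0.53 (adjusted p = 0.354), with overlap. Of the 5 not tested, H2-M10.1 was listed at 0 in all libraries.

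Of the 14 class I promoter regulators and 9 tested interferon pathway genes, 15 passed the test as deposited, all lower, against 34.0% of all tested genes. After scaling 0 did (limma), with 5 lower at an unadjusted p under 0.05, against 11.6% of all tested genes. Of 14 promoter regulators 10 were called lower and 0 higher as deposited (median -0.79, and -0.15 after scaling). Rfx5, whose product binds the X box with NLRC5, fell by 1.21 on the log2 scale (10.2 ± 2.55 and 3.85 ± 1.39 TPM, limma adjusted p = 0.0221). The other RFX genes on the list, Rfxap and Rfxank, did not pass, at 0.051 and -0.42 as deposited and 0.67 and 0.18 after scaling. The NF-Y subunit gene Nfyc fell by 0.83 and Nfkb1, a kappa B binding subunit gene, by 0.75. Of 13 interferon ligand, receptor and signalling genes 9 were tested (median -0.79, and -0.17 after scaling). As deposited 5 were called lower, among them Jak1 (-1.52), Stat2 (-1.48), Irf9 (-1.03) and Tyk2 (-0.97). The ligand genes Ifnb1 and Ifnl2 were listed at 0 in all 6 libraries, and Ifng was above 0 only in Ctrl replicate 2, at 0.51 TPM. After scaling Rfx5 stood at -0.66 (adjusted p = 0.141) and Jak1 at -0.87 (adjusted p = 0.0724).

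Class I receptors and class II genes were not called. Of 12 genes listed as class I receptors 3 were tested, and 0 passed in limma (0 with an unadjusted p under 0.05). These were the myeloid receptor genes Lilrb4a (-1.12), Lilrb4b (-0.88) and Pirb (-0.68). Pirb stood at 48.3, 57.0 and 261 TPM in Ctrl and at 13.98, 139 and 86.6 TPM in DPP3_KO, highest in the library with the highest neutrophil marker sum, Ctrl replicate 3. The T cell coreceptor gene Cd8a did not exceed 0.26 TPM in any library. Of 7 class II presentation genes 6 were tested and 0 passed in limma. At an unadjusted p under 0.05, 3 of the 6 were lower as deposited, against 48.0% of all tested genes, and 0 after scaling. H2-DMb1 stood at -1.34, H2-Aa at -1.22, H2-DMa at -0.87 and Cd74 at -1.18. The median of the 6 tested class II genes was -1.17 as deposited and -0.51 after scaling, close to the -1.12 and -0.48 of the class I members. Over the 8 lists together, 35 of 65 tested genes were lower as deposited (35 again with robust limma), against 34.0% of all tested genes, and after scaling 0 passed in limma, with 13 lower and 2 higher at an unadjusted p under 0.05. At that level after scaling, 1815 of all 15650 tested genes were lower and 1794 higher. Without Ctrl replicate 2, 0 of 66 passed as deposited (34 lower at an unadjusted p under 0.05), and without Ctrl replicate 1, DPP3_KO replicate 1 or DPP3_KO replicate 3, 8, 19 and 16 were lower. In the same order, the genes called lower over all tested genes were 85 of 15503, 1037 of 15526, 3238 of 15759 and 1726 of 15810.

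**Figure D5:**
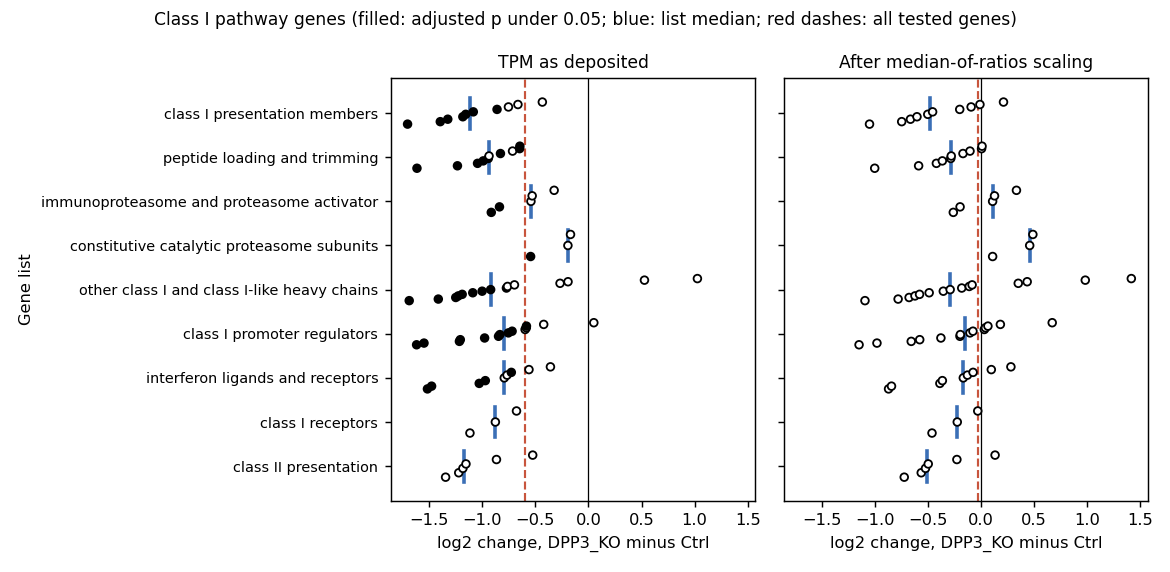
Log2 change (DPP3_KO minus Ctrl) of each tested gene by list, on TPM as deposited and after scaling, with filled points for limma adjusted p under 0.05, a blue bar at each list's median and a dashed line at the median of all tested genes. The members' median is -1.12 as deposited and -0.48 after scaling, where 0 points are filled.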

How the data were processed

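Lung RNA of 3 Ctrl and 3 DPP3_KO samples was analysed from the gene TPM matrix that the authors deposited, with groups and replicate numbers taken from the sample titles. The gene lengths are also the authors' values. The submitters' processing notes list HISAT2, StringTie, RSEM and GRCm39, with no version or role for any tool. The sources used here do not give the annotation release, strand setting, read length or handling of human tumour reads. TPM keeps no depth, so no counting interval is given. Nothing says that replicates came from separate mice, so p-values reflect only sample-to-sample spread, which may be technical. A value column without a sample occurred 0 times.

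TPM was changed to log2(TPM + 1), which understates changes of low genes. Genes averaging 1 TPM or more (15650) entered limma 3.58.1 under R 4.3.3 (lmFit, eBayes with trend; DPP3_KO minus Ctrl, two-sided) and adjusted by Benjamini-Hochberg over all of them. The same genes were refitted after median-of-ratios scaling, with factors from genes above 0 in all libraries. Sums and ratios were tested by exact permutation over libraries. The fit was tested on simulated data. The 10 members and all lists were chosen with earlier results of these data known. Named genes were the 10 members, the 4 with the smallest p in each of 8 pathway lists, and the 5 with the nearest profile. A gene that this rule would name is not reported here. H2-Q10 was named by the profile. Cd1d1, H2-T23, H2-T22, Hfe, Ifnb1, Ifnl2, Ifng, Cd8a, H2-M10.1, Azgp1, H2-M2, Psme1, Rfxap, Rfxank and Scgb1a1 were named outside that rule or after their values were seen. Pseudocounts of 0.1 and 5, filters, other scalings, limma options, a replicate block and each sample left out were tried.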

Additional observations from a re-analysis of the deposited data

How the results depend on the processing

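Scaling here means median-of-ratios scaling unless another is named. The direction of B2m, H2-D1, H2-Q4, H2-Q6, H2-Q7, Tap1 and Nlrc5 was down under every alternative run. For the count of 7 members called as deposited, the alternatives gave 0 after scaling, 1 without Scgb1a1 in the TPM, 3 after quantile normalization (B2m, H2-D1 and H2-Q6), 4 without a filter, 9 with array weights, and 0 to 8 with a sample left out. Over all tested genes, 138 of 15650 were called lower after scaling, 353 of 16093 without Scgb1a1 and 140 of 15650 after quantile normalization. The counts were 3093 of 29859 without a filter and 7189 of 15650 with array weights. After scaling the count of 0 became 1 with array weights and 3 with quantile normalization, and stayed at 0 with each sample left out and with the length trend removed (lowess span 0.3). With array weights and with quantile normalization, 629 and 140 of 15650 tested genes were called lower. The members' median of -1.12 became -0.82 without Scgb1a1, -0.89 with a pseudocount of 5, -0.61 after quantile normalization and -0.48 after scaling. The median of all tested genes went from -0.60 to -0.33, -0.40, -0.0085 and -0.026 in the same settings.

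After scaling and in TPM without Scgb1a1, the log2 difference of the H2-K1 and H2-D1 sum was -0.15 and -0.50, that of the H2-Q sum -0.77 and -1.12, and that of all 5 heavy chains -0.22 and -0.56. With a sample left out these ranged as deposited over -0.99 to -0.68, -1.62 to -1.28 and -1.04 to -0.76, and after scaling over -0.42 to -0.011, -0.92 to -0.61 and -0.47 to -0.077. Tap2 reversed to 0.21 after scaling and 0.19 after quantile normalization. After scaling H2-K1 reversed to 0.044, 0.074 and 0.11 with Ctrl replicate 1, DPP3_KO replicate 1 or DPP3_KO replicate 2 left out (range -0.46 to 0.11 over all 6), and Tapbp to 0.18, 0.14 and 0.028 without Ctrl replicate 1, without DPP3_KO replicate 1 and with the length trend removed (range -0.18 to 0.18 over all 6 left out). The cause was not tested.

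Of all tested genes 5321 were lower and 216 higher as deposited, against 353 and 129 without Scgb1a1 and 140 and 327 after quantile normalization, with 3093 lower without a filter and 138 lower and 297 higher after scaling. With a sample left out, 85 to 5049 lower and 6 to 161 higher were called as deposited. After scaling the counts were 90 and 185 with the length trend removed, 629 and 723 with array weights, 33 and 84 without a filter, 8 and 25 with the replicate block, and 6 to 174 and 18 to 179 with a sample left out. Of the pathway genes 35 were lower as deposited, against 2 without Scgb1a1, 0 after quantile normalization or median-of-ratios scaling, and 0 to 36 with a sample left out, and 0 were higher, against 1 with array weights or without the trend and 0 to 1 with a sample left out. After scaling, 0 pathway genes were lower, against 1 with the length trend removed, 6 with array weights (and 1 higher), and 0 to 1 with a sample left out.

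Same-numbered samples deviated together only in part (correlations of 0.27, -0.21 and 0.15 as deposited), and not every sample correlated best with its own number, so the numbers were not taken to pair the samples. With the replicate block 7 members were called as deposited and 0 after scaling (3 at an unadjusted p under 0.05). Of 15650 tested genes, 4734 were called lower as deposited and 8 after scaling (1546 at an unadjusted p under 0.05 in limma). Depth is unknown, so precision at low TPM cannot be given.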
